A study of Mus musculus with 10 samples.

Results

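Steroid hormone receptors of the mouse ovarian follicle were followed as 7 genes: Esr1 and Esr2, which encode the estrogen receptors alpha and beta, Pgr, the nuclear progesterone receptor, Nr3c1, the glucocorticoid receptor, Pgrmc1 and Pgrmc2, the membrane-associated progesterone receptor components, and Gper1, a G protein-coupled receptor that responds to estradiol. The genes were chosen by symbol, and all 7 were found among 23234 gene symbols, Gper1 under its older name Gpr30. RNA sequencing covered 10 libraries in 5 groups. Cumulus cells, the granulosa cells around the oocyte, came from C57BL/6 mice aged 2 months (n = 3) and 10 months (n = 3), and mural granulosa cells, the layer along the follicle wall, from C57BL/6 mice aged 2 months (n = 2). For whole cumulus-oocyte complexes (COC) the donors were 3 weeks old and primed with PMSG, a gonadotropin also called eCG, and gave 1 library from BDF1 mice, a cross of C57BL/6 and DBA/2, and 1 from DBA/2 mice. The protocols name eCG-primed animals as the source of the mural cells and a medium holding milrinone, an inhibitor of phosphodiesterase. No source used here says whether the cumulus donors were primed. Nor is it stated that replicates are different animals, so p-values reflect only how far these libraries spread, which may be technical.

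Nuclear steroid receptors are held by a chaperone complex built on HSP90 and, once bound by hormone, act on genes with coactivators and corepressors. In rodent follicles granulosa cells express mainly the beta form of the estrogen receptor, which supports their response to FSH, while the alpha form is prominent in theca cells. Pgr is switched on in mural granulosa cells of preovulatory follicles by the LH surge and is needed for follicle rupture, whereas PGRMC1 and PGRMC2 are heme-binding membrane proteins related to cytochrome b5 that granulosa cells make without such a surge.

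Levels are given in FPKM, fragment numbers divided by the length of the transcript and by library depth, a scale per length on which genes can be set beside each other. Steps between low FPKM values showed the relative sequencing depth of the libraries: the 8 C57BL/6 libraries lay between 0.802 and 1.14 of cumulus replicate 2 at 10 months, and the COC libraries at 0.228 (BDF1) and 0.223 (DBA/2). The same steps gave the whole number of fragments behind 75% of 3672 genes with a mean below 1 FPKM, Gper1 among them. They also gave it for Esr1 and Pgr, whose means were higher. Markers of granulosa cells summed to 6253 to 16983 FPKM with none of 11 at 0 in any library, and 14 oocyte markers summed to 4019 and 4100 FPKM in the COC. Cumulus libraries held oocyte markers unevenly (279, 1.83 and 1485 FPKM at 2 months, with 10 of 14 at 0 in replicate 2, and 373.5, 210.1 and 466.7 at 10 months). Mural libraries held them too, at 192.9 and 24.4 FPKM. Cumulus replicate 3 at 10 months stood apart from its group: its mural and luteal markers summed to 1480 FPKM against 307.7 and 612, and its theca and stroma markers to 369.9 FPKM against 161.9 and 95.5. Vim alone made 315 FPKM of that last sum against 135 and 58.7. The median log2(FPKM + 1) of the theca and stroma markers was 2.60 against 1.52 and 1.71. Receptor results on 10-month cells are therefore given with and without it. In bulk RNA, fewer cells of a type and less RNA per cell cannot be told apart.

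The receptors spanned the range from abundant to barely detected. In cumulus cells at 2 months, Esr2 lay above 93.3% of the 17467 genes detected, Pgrmc1 above 91.2% and Pgrmc2 above 84.2%. Esr1 was near the middle of the distribution, above 51.1% of genes, and Nr3c1 lay above 31.1%. Gper1 and Pgr were near its lower end, above 9.64% and 1.84% of genes. Of the 7 genes, 6 passed the filter for testing, a mean of at least 1 FPKM over the 8 C57BL/6 libraries. Gper1 did not pass, and Pgr passed through a single library.

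**Figure D1:**
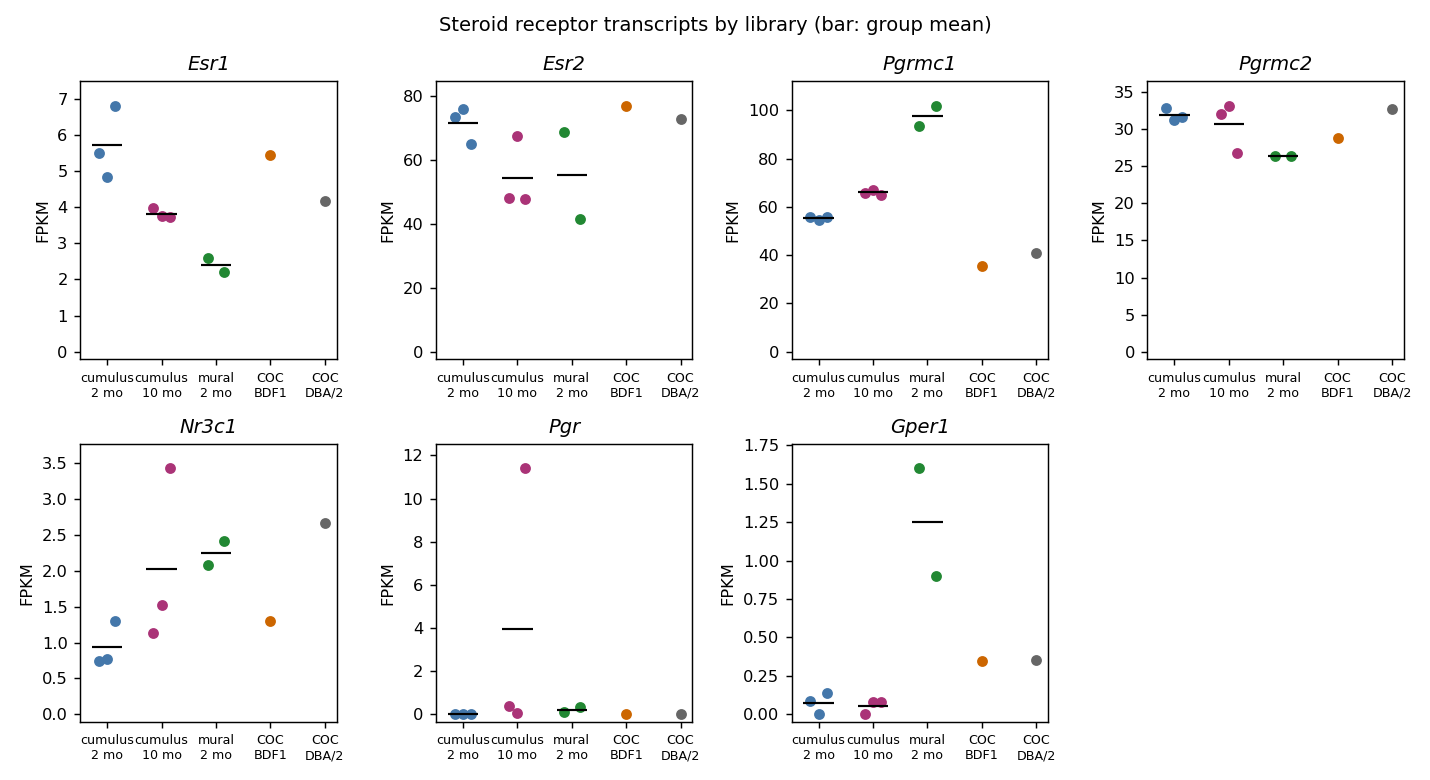
FPKM of the 7 receptor genes in each library (points) by group, with the group mean as a bar and a separate linear axis for each gene. Mural libraries were highest for Pgrmc1 (93.7 and 102 FPKM) and lowest for Esr1 (2.60 and 2.20 FPKM), and the 1 high Pgr value was 11.4 FPKM in cumulus replicate 3 at 10 months.

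Mural granulosa cells differed from cumulus cells of the same age in Pgrmc1, which was higher, and Esr1, which was lower, and 4 tested receptors did not pass. The comparison used a linear model of log2(FPKM + 1) over 12412 genes (limma), in which 2 of 6 receptors passed at an adjusted p of 0.05 against 20.9% of all genes. Of all genes 9.69% passed as higher and 11.2% as lower in mural cells, so 1 receptor each way is near the background. An unadjusted p under 0.05 was reached by the same 2 receptors, against 36.8% of all genes. Mural and cumulus libraries did not overlap for 5 of the 6 receptors, against 57.6% of all genes, with 3 higher (25.6% of all genes) and 2 lower (32%). Pgr is among the 6 and among the 3 higher, though it passed the filter only through a 10-month library. Its separation rests on 4 and 12 fragments in mural cells against at most 1. The others were Pgrmc1 and Nr3c1 as higher, and Esr1 and Pgrmc2 as lower. Rescaling the libraries to the same sum without short RNA genes (Mir and Snor) shifted the median over all genes on the log2 scale, from -0.08 to 0.11, and the share of higher calls among all calls from 46.3% to 64.0%. The calls on Pgrmc1 and Esr1 kept their side of the threshold and their direction under that rescaling. Theca and stroma markers summed to 246.1 and 343 FPKM in mural and 41.3 to 49.7 FPKM in cumulus cells, endothelial markers to 23.8 and 61.2 against 1.60 to 5.19, and immune markers to 30.2 and 63.3 against 6.23 to 8.74. Of the theca and stroma sums, Vim made 136 and 182 FPKM in mural and 29.5 to 37.8 FPKM in cumulus cells. Surface epithelium markers summed to 56.1 and 37.1 FPKM against 27.5 to 35.4, of which Krt8 made 17.5 and 11.8 against 22.4 to 30.8. The median log2(FPKM + 1) of these markers was 2.58 and 2.03 against 0.00 to 0.40. Of their 9 fold changes 7 were above 0 and 2 below, and 1 of 9 passed as higher in mural cells. As passing genes, 7 of 9 tested theca and stroma markers, 4 of 5 endothelial and 3 of 9 immune markers were higher in mural cells. Kdr and Eng of the endothelial list, and Msln, the 1 surface epithelium gene, passed the filter only through their mural levels. The endothelial and surface epithelium counts are thus partly set by the filter. None of the 12 theca and stroma markers was at 0 in a mural library. The part of these cells in the receptor differences was not tested.

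Between cumulus cells at 10 and 2 months no receptor passed the threshold. Pgr entered the model only through its level in 1 library at 10 months and is left out of these counts. None of the other 5 tested receptors passed (0 of 12412 genes, 0%, in limma), and an unadjusted p under 0.05 was reached by 2 of the 5, Esr1 and Pgrmc1, against 1727 of all genes (13.9%). The groups did not overlap for 2 of the 5, against 17.8% of all genes, namely Pgrmc1 as higher (8.93% of all genes) and Esr1 as lower (8.88%). Leaving out a single cumulus library gave 3 to 245 genes past the threshold, 245 of them without replicate 2 at 10 months, and none of these settings called a receptor. Immune markers summed to 31.7, 70.7 and 96.2 FPKM at 10 months, above all 3 libraries at 2 months. The same held for theca and stroma markers (161.9, 95.5 and 369.9 FPKM against 41.3 to 49.7), surface epithelium markers (60.1, 58.3 and 126.2 against 27.5 to 35.4) and mural and luteal markers (307.7, 612 and 1480 against 211.6 to 280.7). Vim made 135, 58.7 and 315 FPKM of the theca and stroma sums at 10 months and 29.5 to 37.8 at 2 months. Of the 9 tested theca and stroma markers 8 had fold changes above 0, with Pdgfra (0.07) and Nr2f2 (-0.03) near 0. None of the tested genes of these 4 lists passed with age, and their part in the age values of the receptors was not tested.

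**Figure D2:**
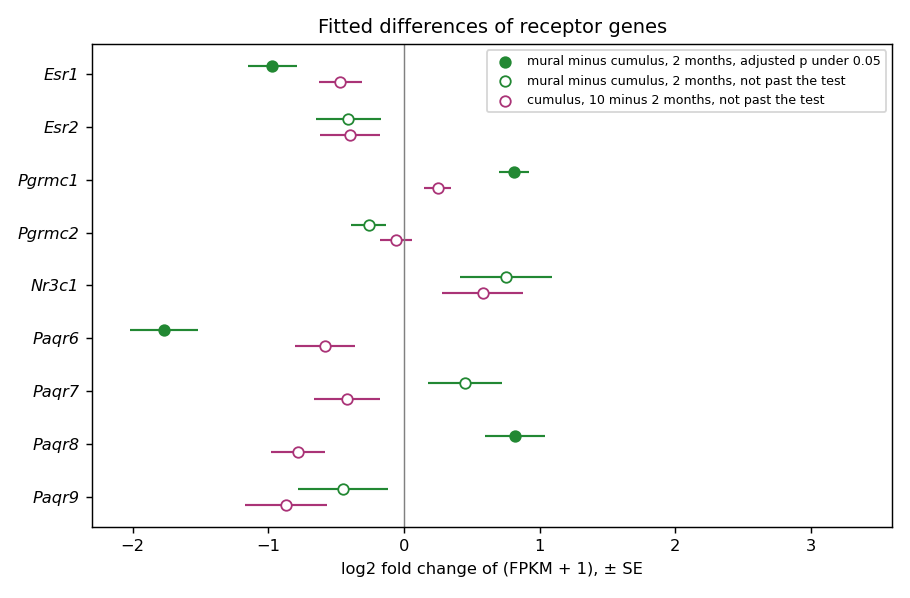
Log2 fold changes of (FPKM + 1) with standard errors for receptor genes, as mural minus cumulus cells at 2 months and as cumulus cells at 10 minus 2 months, with filled points for adjusted p under 0.05. Filled points are Esr1 (-0.97), Pgrmc1 (0.81), Paqr6 (-1.77) and Paqr8 (0.82), all in the mural comparison, and no point of the age comparison is filled. Pgr and Gper1 are not plotted.

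Esr2 was the most abundant of the 7 genes in cumulus cells at 2 months. It stood at 73.5, 76.1 and 65.2 FPKM in the replicates at 2 months, at 48.0, 67.5 and 47.9 at 10 months, and at 68.9 and 41.7 in mural cells. The COC libraries held 77.1 (BDF1) and 72.9 FPKM (DBA/2). The 10-month and mural libraries reached from below the 2-month cumulus range into it, so both groups overlapped with it. Means were 71.6 ± 5.68 FPKM at 2 months, 54.5 ± 11.3 at 10 months and 55.3 ± 19.2 in mural cells (SD, n = 3, 3 and 2). The log2 fold change was -0.40 ± 0.22 (SE) with age (limma, adjusted p = 0.453), or -0.32 without replicate 3 at 10 months, and -0.41 ± 0.24 in mural cells (adjusted p = 0.268). The mural value was -0.76 without mural replicate 1, -0.05 without mural replicate 2 and -0.19 after rescaling without short RNA genes.

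Esr1 was lower in mural than in cumulus cells. It stood at 5.51, 4.83 and 6.81 FPKM in cumulus cells at 2 months, behind which were 115, 96 and 176 fragments. At 10 months it stood at 3.97, 3.75 and 3.72 FPKM (72, 85 and 83 fragments), and in mural cells at 2.60 and 2.20 FPKM (64 and 48 fragments). Each group lay wholly below the one before, in the order cumulus at 2 months, cumulus at 10 months, mural. Means were 5.72 ± 1.01, 3.81 ± 0.135 and 2.40 ± 0.283 FPKM (SD, n = 3, 3 and 2), and the mural difference was a log2 fold change of -0.97 ± 0.18 (SE; limma, adjusted p = 0.0117). That call was lost when either mural library was left out, with -1.06 and adjusted p = 0.0540 without replicate 1, and -0.89 and adjusted p = 0.102 without replicate 2. The age difference was -0.47 ± 0.16 and did not pass (limma, adjusted p = 0.281), and it was -0.46 without replicate 3 at 10 months. The COC values of 5.43 (BDF1, 28 fragments, 95% Poisson interval 18.6 to 40.5) and 4.16 FPKM (DBA/2, 21 fragments, 13.0 to 32.1) rest on few fragments. Such intervals cover counting error only.

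The balance between the estrogen receptor genes was tilted to Esr2 in every library. The ratio of Esr2 to Esr1 was 13.3, 15.7 and 9.57 in cumulus cells at 2 months, 12.1, 18 and 12.9 at 10 months, and 26.5 and 18.9 in mural cells. Both mural ratios were above all 6 cumulus ratios. On the log2(FPKM + 1) scale the ratio was higher in mural cells by 0.57 (exact two-sided permutation test, n = 2 and 3, p = 0.200) and at 10 months by 0.07 (exact permutation test, n = 3 and 3, p = 0.900), or 0.13 without replicate 3. The mural difference was 0.30 without mural replicate 1, 0.84 without mural replicate 2 and 0.15 with a pseudocount of 5. With these numbers of libraries the smallest p such a test can give is 0.1. The ratio was 14.2 in BDF1 and 17.6 in DBA/2 COC, within the range of the cumulus libraries.

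Gper1 was backed by 33 fragments in the mural libraries against 3 in cumulus cells at 2 months and 2 at 10 months. The gene stood at 0.0856, 0 and 0.138 FPKM in cumulus cells at 2 months (1, 0 and 2 fragments) and at 0, 0.0789 and 0.0799 FPKM at 10 months (0, 1 and 1 fragments). In mural cells it stood at 1.60 and 0.902 FPKM, from 22 fragments (95% Poisson interval 13.8 to 33.3) and 11 fragments (5.49 to 19.7). The mural values lay above all 6 cumulus values. Gper1 was too low for the filter, and its difference in mean log2(FPKM + 1) was 1.05, with an adjusted p of 0.00811 when no filter was set (limma). The zeros of cumulus replicate 2 at 2 months and replicate 1 at 10 months allow up to 0.270 and 0.295 FPKM, the value of 3 fragments. Endothelial and theca markers were high in the same mural libraries, as given above. The part of those cells in the Gper1 values was not tested. In the COC, 1 fragment in each library gave 0.346 and 0.353 FPKM, below the 1.04 and 1.06 FPKM that 3 fragments would give.

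Pgrmc1 and Pgrmc2 were both abundant, and their values differed in direction between compartments. Pgrmc1 was 1.75-fold higher in mural cells. It stood at 55.8, 54.5 and 55.9 FPKM in cumulus cells at 2 months, at 65.8, 67.1 and 65.1 at 10 months, and at 93.7 and 102 in mural cells. The 3 groups did not overlap, and replicates within each lay close together. Means were 55.4 ± 0.762, 66.0 ± 1.02 and 98.0 ± 6.04 FPKM (SD, n = 3, 3 and 2). The mural log2 fold change was 0.81 ± 0.11 (SE; limma, adjusted p = 0.00593), and 0.75 with adjusted p = 0.0679 without mural replicate 2. The age difference was 0.25 ± 0.10 and did not pass (limma, adjusted p = 0.336), and it was 0.26 without replicate 3 at 10 months. Both COC libraries, at 35.7 (BDF1) and 40.9 FPKM (DBA/2), were below every C57BL/6 library.

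Pgrmc2 varied less. It stood at 32.9, 31.3 and 31.6 FPKM in cumulus cells at 2 months, at 32.1, 33.2 and 26.8 at 10 months, and at 26.4 in both mural libraries, and the COC held 28.8 and 32.8 FPKM. Mural libraries lay below those of cumulus cells at 2 months, and the 10-month values reached above and below that range. The log2 fold change was -0.26 ± 0.13 in mural cells (limma, adjusted p = 0.193) and -0.06 ± 0.12 with age (adjusted p = 0.877). Rescaling without short RNA genes brought the mural value to -0.06, and leaving out replicate 3 at 10 months turned the age value to 0.03.

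The ratio of Pgrmc1 to Pgrmc2 separated all the groups of C57BL/6 cells. It was 1.70, 1.74 and 1.77 in cumulus cells at 2 months, 2.05, 2.02 and 2.43 at 10 months, and 3.56 and 3.87 in mural cells. No ratio of one group lay within another, and both COC libraries were lowest, at 1.24 each. On the log2(FPKM + 1) scale the ratio was higher in mural cells by 1.07 (exact two-sided permutation test, n = 2 and 3, p = 0.1) and at 10 months by 0.31 (exact permutation test, n = 3 and 3, p = 0.1). Both p-values are the smallest these numbers of libraries allow. Without replicate 3 at 10 months the age difference was 0.23.

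**Figure D3:**
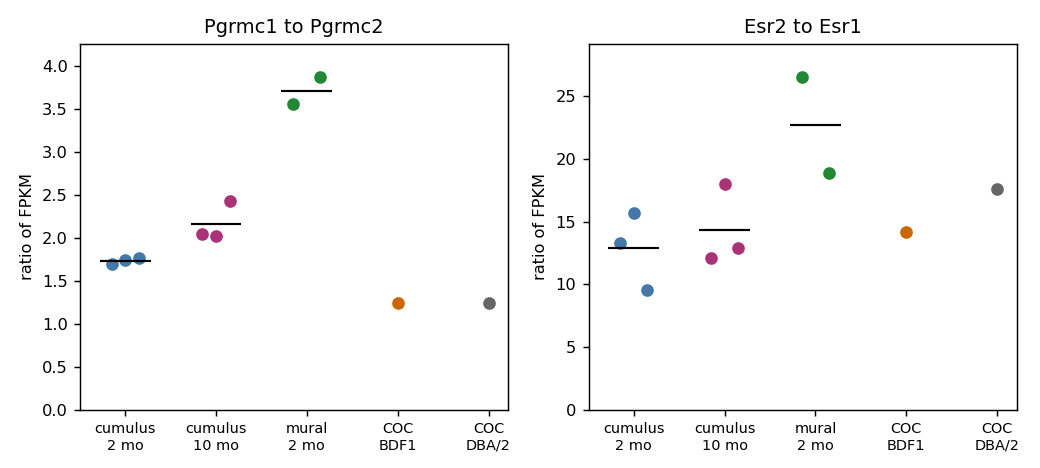
Ratio of Pgrmc1 to Pgrmc2 FPKM (left) and of Esr2 to Esr1 FPKM (right) in each library by group, with the group mean as a bar and linear axes from 0. The Pgrmc1 to Pgrmc2 ratio goes from 1.24 in both COC libraries to 3.56 and 3.87 in mural cells without overlap between the C57BL/6 groups, whereas the Esr2 to Esr1 ratios of the cumulus groups overlap.

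Promoter windows are shown for Pgrmc1 and Pgrmc2, whose transcripts were abundant in every library, beside those of Pgr and Gper1, which were near or at 0 in most. Each holds 300 bases, 250 before and 50 after the annotated start, from RefSeq on build GRCm38.p6 (the FPKM were made on mm9). Pgrmc1 lies at chrX:36597943-36598242 on the plus strand, Pgrmc2 at chr3:41082997-41083296 on the minus strand, Pgr at chr9:8899583-8899882 and Gper1 at chr5:139422929-139423228, both on the plus strand. Sequences run 5′ to 3′ along the gene, and capitals mark matches on either strand to the motifs listed after them.

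Pgrmc1: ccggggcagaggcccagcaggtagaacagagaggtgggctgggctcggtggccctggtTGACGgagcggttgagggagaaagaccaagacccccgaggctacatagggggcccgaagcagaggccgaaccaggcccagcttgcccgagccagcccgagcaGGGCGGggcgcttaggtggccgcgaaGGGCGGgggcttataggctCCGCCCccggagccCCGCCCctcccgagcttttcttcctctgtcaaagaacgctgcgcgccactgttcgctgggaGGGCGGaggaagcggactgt

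Pgrmc2: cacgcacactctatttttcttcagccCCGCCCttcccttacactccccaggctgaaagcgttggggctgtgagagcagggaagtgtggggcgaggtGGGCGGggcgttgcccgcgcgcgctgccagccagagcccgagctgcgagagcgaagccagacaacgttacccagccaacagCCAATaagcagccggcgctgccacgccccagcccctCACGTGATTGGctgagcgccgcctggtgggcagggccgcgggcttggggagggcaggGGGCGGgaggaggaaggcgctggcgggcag

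Pgr: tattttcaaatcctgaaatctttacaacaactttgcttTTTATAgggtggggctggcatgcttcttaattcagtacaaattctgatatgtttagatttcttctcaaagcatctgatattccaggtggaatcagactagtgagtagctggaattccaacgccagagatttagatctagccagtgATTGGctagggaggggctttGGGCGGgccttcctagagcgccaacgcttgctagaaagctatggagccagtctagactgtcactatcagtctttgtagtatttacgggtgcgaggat

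Gper1: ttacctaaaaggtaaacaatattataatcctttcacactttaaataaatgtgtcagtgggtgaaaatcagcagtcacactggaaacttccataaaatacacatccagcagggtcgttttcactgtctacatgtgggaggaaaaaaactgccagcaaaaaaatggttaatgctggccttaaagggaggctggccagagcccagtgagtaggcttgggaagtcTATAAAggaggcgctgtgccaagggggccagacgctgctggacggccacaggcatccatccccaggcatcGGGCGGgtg

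The motifs searched were the GC box GGGCGG (in 35.7% of 32851 promoter windows of the same length), the TATA box TATAAA (13.6%), the CCAAT box (37.4%), the E-box CACGTG (7.15%), the cyclic AMP core TGACG (20.8%), the estrogen core GGTCA (40.5%), the NR5A core AAGGTCA (4.72%), whose letters include GGTCA, and the full estrogen response element, GGTCA and TGACC with any 3 bases between them (0.07%). Pgrmc1 held 5 GC boxes and 1 TGACG with 69.0% GC, and Pgrmc2 held 3 GC boxes, 2 CCAAT boxes and 1 E-box with 69.3% GC. Pgr held 1 GC box, 1 CCAAT box and 1 TATA match with 43.7% GC, and Gper1 held 1 GC box and 1 TATA match with 48.3% GC. The CpG dinucleotides numbered 24 and 25 in the Pgrmc windows and 6 in each of the others. A full estrogen response element was in none of these 4 windows, which says only that these letters are not there.

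Pgr was near 0 in all libraries but 1. It stood at 0.0295, 0 and 0.0238 FPKM in cumulus cells at 2 months (1, 0 and 1 fragments), at 0.373, 0.0816 and 11.4 FPKM at 10 months (11, 3 and 415 fragments), and at 0.1 and 0.339 FPKM in mural cells (4 and 12 fragments). The 415 fragments of replicate 3 at 10 months have a 95% Poisson interval of 376 to 457. The 10-month libraries lay above those at 2 months, yet replicates 1 and 2 lay just above and just below the mural values. The separation of replicate 2 at 10 months from the 2-month libraries rests on 3 fragments against 1. Since replicate 3 at 10 months alone carried Pgr past the filter, the age difference is given with no test, as a log2 fold change of 1.38, or 0.26 without replicate 3. The mural difference was 0.25 ± 0.94 (limma, adjusted p = 0.870). That SE comes from a spread shared by all groups of the model, which includes replicate 3 at 10 months. It is therefore not the spread of the libraries compared. The adjusted p was 0.214 with the 2 groups fitted alone and 0.468 without replicate 3 at 10 months (limma). Both COC libraries held 0 fragments, which allows up to 0.358 FPKM in BDF1 and 0.365 FPKM in DBA/2.

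**Figure D4:**
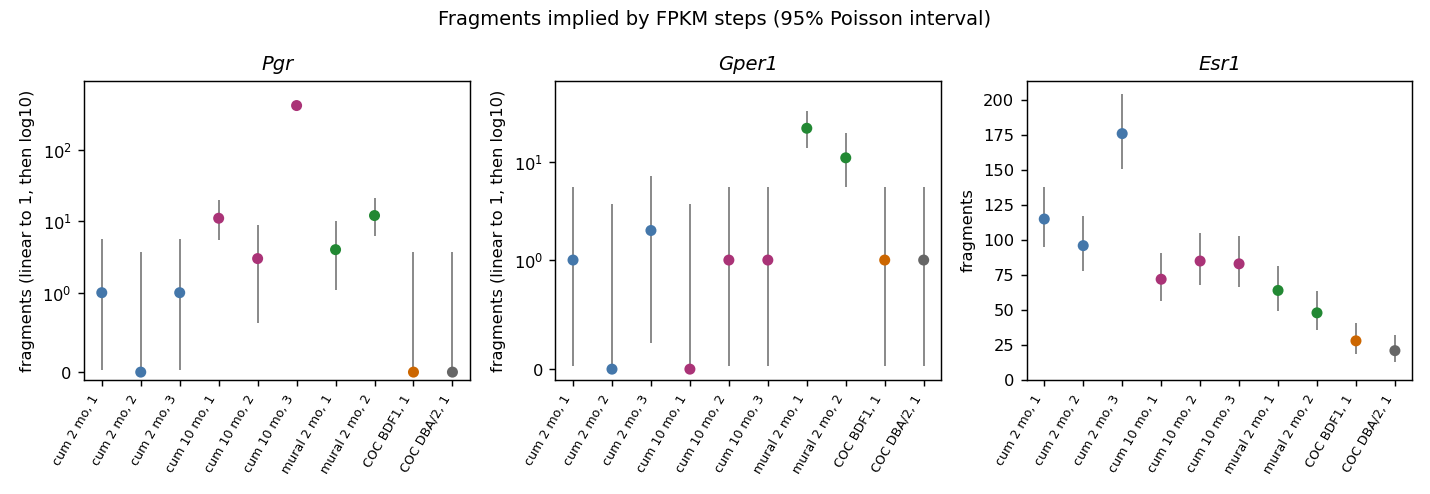
Whole fragments recovered from FPKM steps for Pgr, Gper1 and Esr1 in each library, with exact 95% Poisson intervals as lines and an axis that is linear to 1 and log10 above for Pgr and Gper1. Pgr reaches 415 fragments in cumulus replicate 3 at 10 months and at most 12 elsewhere, Gper1 reaches 22 and 11 in mural libraries and at most 2 elsewhere, and Esr1 is counted in all 10 libraries.

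Genes of the ovulatory response, the group to which Pgr belongs, were high in the same library. Areg, an EGF-like ligand of the LH response, stood at 88.5 FPKM in replicate 3 at 10 months against 5.70 and 0.914 in the other replicates and at most 0.160 at 2 months. Ereg, a related ligand, stood at 14.5 FPKM against 0.519 and 0.0462, and Adamts1, a matrix protease that depends on Pgr in mouse follicles, at 84.8 against 40.6 and 25.6. Replicates were not alike in all of these genes: Ptgs2, the prostaglandin synthase of ovulation, stood at 27.6 FPKM in both replicates 1 and 3 at 10 months against 2.17 in replicate 2. Has2, which makes the hyaluronan of the expanding cumulus, was highest in replicate 1 (9.99 FPKM against 1.26 and 1.09), and so was Ptx3, a matrix protein (13.9 against 1.06 and 1.93). Of 12 ovulatory response genes none passed with age. Their median log2 fold change was 1.75, or 1.26 without replicate 3, and -0.02 over all genes. Pgr, Ereg, Sult1e1, Ptgs2, Has2, Ptx3 and Tnfaip6 passed the filter only through their levels at 10 months. All 12 fold changes were above 0, against 5776 of all 12412 genes. The median and this count are partly set by the filter, so a common rise with age cannot be read from them. Among the 12, Ptgs2 (3.21, limma, adjusted p = 0.213), Adamts1 (1.61, adjusted p = 0.252) and Tnfaip6, a hyaluronan-binding protein (2.55, adjusted p = 0.256), had the smallest p-values. The summed FPKM of the list was 136.5, 44.3 and 381.8 at 10 months, 16.6 to 35.1 at 2 months, 34.6 and 41.4 in mural cells and 11.6 and 14.3 in the COC. In mural cells 1 of the 12 was higher, near the 9.69% of all genes, namely Runx2, a transcription factor of the LH response (2.89, adjusted p = 0.0193), and this call was lost without either mural library and without replicate 1 or 2 of the 2-month cumulus cells.

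**Figure D5:**
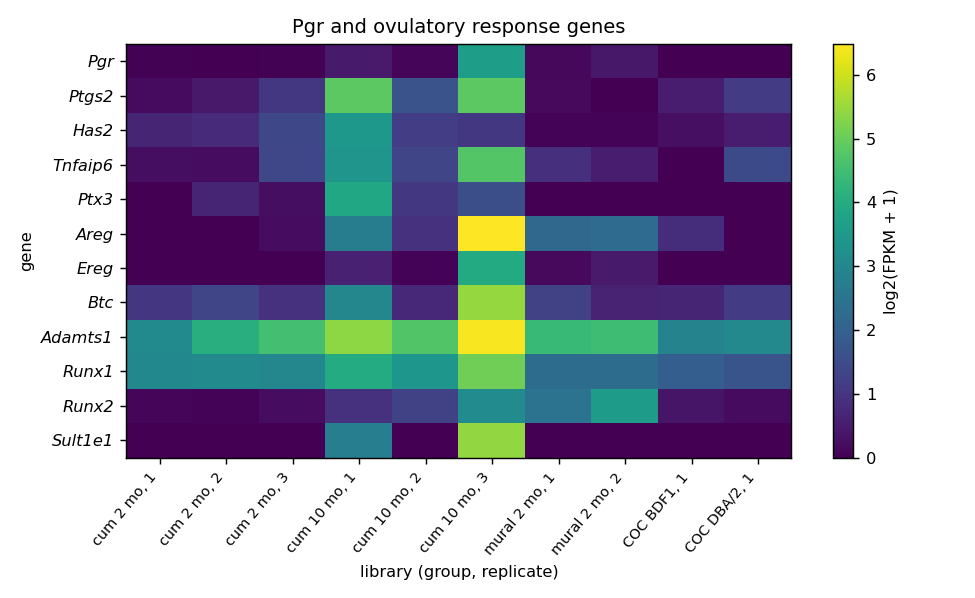
Level of Pgr and 11 other ovulatory response genes as log2(FPKM + 1) in colour, with genes in rows and libraries (group and replicate) in columns. Cumulus replicate 3 at 10 months is bright for Areg, Adamts1, Btc, Sult1e1, Runx1, Ptgs2, Tnfaip6, Ereg and Pgr. Replicate 1 at 10 months is as bright for Ptgs2 and brightest for Has2 and Ptx3, and the columns at 2 months are dark for most genes.

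Other genes known as targets of PGR in mouse granulosa cells showed no common direction between compartments. Of 15 such genes 11 were tested, and 2 were higher and 2 lower in mural cells, against 9.69% and 11.2% of all genes. Of the log2 fold changes 5 were above 0 and 5 below. The median of 0.00 was the value of Il6, which was at 0 FPKM in every mural and 2-month cumulus library. Pparg, a nuclear receptor of lipid metabolism, was lower at 51.5 ± 3.98 against 97.9 ± 9.71 FPKM (SD, n = 2 and 3; -0.91, limma, adjusted p = 0.00659), as was Epas1, a hypoxia-inducible factor, at 32.4 ± 3.27 against 89.7 ± 6.49 (-1.44, adjusted p = 0.00717). Cxcr4, a chemokine receptor, was higher at 4.84 ± 2.28 against 0.206 ± 0.258 FPKM (2.24, adjusted p = 0.0166). With age none of the 11 passed. The median of 1.25 was again the value of Il6, and without replicate 3 at 10 months the median was 0.33. Il6, Ereg and Edn2 passed the filter only through 10-month libraries, so the age median is partly set by the filter. Edn2, the endothelin of follicle rupture, had the smallest p with age (1.81, limma, adjusted p = 0.245), with the same limit. All 4 calls in mural cells were lost without mural replicate 2, and the 2 higher ones also without mural replicate 1 or cumulus replicate 2 at 2 months.

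The membrane progesterone receptors of the PAQR family went in both directions between compartments. Paqr6, which encodes the delta form, was lower in mural cells at 8.11 and 5.80 FPKM against 29.9, 27.8 and 20.8 in cumulus cells at 2 months. The groups did not overlap, and 10-month cumulus cells lay between them at 16.4, 21.8 and 13.6 FPKM with 1 value inside the younger range. The mural log2 fold change of Paqr6 was -1.77 ± 0.25 (SE; limma, adjusted p = 0.00593). Paqr8, the beta form, was higher in mural cells at 16.6 and 18.4 FPKM against 11.9, 9.82 and 7.22 (0.82 ± 0.22, adjusted p = 0.0364). At 10 months Paqr8 stood at 4.19, 6.04 and 5.24 FPKM, below every younger library, and did not pass (-0.78 ± 0.20, adjusted p = 0.224). Paqr7, the alpha form, stood at 43.7, 36.4 and 26.6 FPKM in cumulus cells at 2 months, 21.2, 35.9 and 22.7 at 10 months, 47.7 and 48.1 in mural cells and 45.0 and 58.6 in the COC. It thus lay above Pgrmc2 in both mural and both COC libraries. The same held for cumulus replicates 1 and 2 at 2 months and replicate 2 at 10 months. Paqr7 did not pass in mural cells (0.45, limma, adjusted p = 0.273) or with age (-0.42, adjusted p = 0.490), and neither did Paqr9, the epsilon form (-0.45, adjusted p = 0.367, and -0.87, adjusted p = 0.279). The calls on Paqr6 and Paqr8 were both lost without mural replicate 2, and that on Paqr8 also without mural replicate 1 or cumulus replicate 2 or 3 at 2 months.

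Partners of the PGRMC proteins mostly did not pass. Of 8 genes 1 was higher and 1 lower in mural cells, near the 9.69% and 11.2% of all genes, with a median log2 fold change of 0.41. Serbp1, an RNA-binding protein found in a complex with PGRMC1, was lower at 35.5 ± 0.755 against 56.5 ± 5.11 FPKM (SD, n = 2 and 3; -0.65, limma, adjusted p = 0.0223). Scap, the sterol-sensing escort of SREBP, was higher at 176 ± 11.2 against 113 ± 16.8 (0.64, adjusted p = 0.0317), and Por, the reductase of microsomal cytochrome P450 enzymes, did not pass (0.54, adjusted p = 0.0716). Both calls were lost when either mural library or cumulus replicate 2 at 2 months was left out, that on Serbp1 also without cumulus replicate 1 and that on Scap without cumulus replicate 3. With age none of the 8 passed (median 0.38, or 0.24 without replicate 3 at 10 months), and Por again had the smallest p (0.46, adjusted p = 0.290).

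Nr3c1 was low in cumulus cells and did not pass in either comparison. It stood at 0.742, 0.768 and 1.30 FPKM at 2 months, at 1.14, 1.52 and 3.43 at 10 months, and at 2.08 and 2.41 in mural cells. The mural libraries lay above all cumulus libraries at 2 months, and the 10-month libraries overlapped with both other groups. Means were 0.938 ± 0.316, 2.03 ± 1.23 and 2.25 ± 0.231 FPKM (SD, n = 3, 3 and 2). The mural log2 fold change was 0.75 ± 0.34 (limma, adjusted p = 0.150), and it passed in 4 of the alternative fits, among them that without replicate 3 at 10 months (adjusted p = 0.0460). The age difference was 0.58 ± 0.30 (adjusted p = 0.438), and 0.27 (adjusted p = 0.686) without replicate 3 at 10 months. The COC held 1.30 (BDF1) and 2.67 FPKM (DBA/2). Nr3c2, the mineralocorticoid receptor, which also binds corticosterone, had at most 9 fragments in any library (0.427 FPKM).

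Enzymes that set corticosteroid supply were unequal. Hsd11b2, which inactivates corticosterone, stood at 102, 88.1 and 64.2 FPKM in cumulus cells at 2 months, at 85.9, 97.9 and 55.3 at 10 months, and at 36.1 and 22.4 in mural cells. The mural libraries were lowest of the C57BL/6 libraries (-1.51 ± 0.31, limma, adjusted p = 0.0159), a call lost without mural replicate 2 or cumulus replicate 2 at 2 months. Hsd11b1, which regenerates corticosterone, was listed at 0 in all 8 C57BL/6 libraries and in the BDF1 COC.

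Genes known to respond to glucocorticoids did not share a direction between compartments. Of 15 genes 13 were tested, with 3 higher and 1 lower in mural cells against 9.69% and 11.2% of all genes (median log2 fold change -0.17, or 0.02 after rescaling without short RNA genes). Nfkbia, an inhibitor of NF-kappa-B, was lower at 17.0 ± 3.21 against 45.6 ± 10.4 FPKM (SD, n = 2 and 3; -1.36, limma, adjusted p = 0.00790). Ddit4, an inhibitor of mTORC1, was higher at 78.8 ± 20.4 against 24.0 ± 8.22 FPKM (1.71, adjusted p = 0.0129), as was Glul, glutamine synthetase, at 29.0 ± 1.94 against 10.3 ± 1.86 (1.43, adjusted p = 0.0173). With age none of the 13 passed. Of their fold changes 12 were above 0, against 5776 of all 12412 genes (median 0.87, and 0.80 without replicate 3 at 10 months). The metallothionein genes had the smallest p-values with age, and metals induce them as well as glucocorticoids. Mt2 stood at 95.3, 107 and 129 FPKM at 10 months against 21.3, 29.4 and 33.0 at 2 months, without overlap (1.96, adjusted p = 0.0869), and Mt1 at 386, 421 and 425 against 218, 202 and 181 (1.03, adjusted p = 0.116). Errfi1, a feedback inhibitor of the EGF receptor, had 2.78 (adjusted p = 0.197). Without replicate 2 at 10 months 3 of the 13 passed as higher with age, against 211 of all 12412 genes. In mural cells none of the 13 passed without mural replicate 2, 1 higher and 1 lower passed without mural replicate 1, and 1 higher and 2 lower passed without cumulus replicate 1 at 2 months.

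Receptor chaperones that passed were lower in mural cells. Of 12 genes 7 passed as lower and none as higher, against 11.2% and 9.69% of all genes, and all 12 fold changes were below 0, with a median of -0.51 against -0.08 over all genes. Hsp90aa1, the inducible cytosolic HSP90, stood at 137 ± 6.82 against 318 ± 49.9 FPKM (SD, n = 2 and 3; -1.20, limma, adjusted p = 0.00761). Hspa4, a cochaperone of HSP70, stood at 50.7 ± 2.03 against 85.5 ± 6.52 (-0.74, adjusted p = 0.00939), and Stip1, which links HSP70 to HSP90, at 73.4 ± 1.79 against 125 ± 13.3 (-0.75, adjusted p = 0.0136). Fkbp4 and Fkbp5, the immunophilins of the mature receptor complex, did not pass (-0.43 each, adjusted p = 0.223 and 0.231). The count was 5 after rescaling without short RNA genes (median -0.30), 3 after quantile normalization, 3 without any single cumulus library at 2 months, 1 without mural replicate 1 and 0 without mural replicate 2 (median -0.66). With age none of the 12 passed, and the median was -0.01, or 0.02 without replicate 3 at 10 months.

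Coregulators of nuclear receptors mostly did not pass. Of 18 genes 2 were lower and none higher in mural cells, near or under the 11.2% and 9.69% of all genes, with a median log2 fold change of -0.19 (0.01 after rescaling without short RNA genes). The genes that passed encode arginine methyltransferases, Prmt1 at 131 ± 4.46 against 211 ± 24.7 FPKM (SD, n = 2 and 3; -0.68, limma, adjusted p = 0.0347) and Carm1 at 16.6 ± 0.679 against 27.5 ± 4.71 (-0.68, adjusted p = 0.0386). Both calls were lost without either mural library and without cumulus replicate 1 or 2 at 2 months. With age none passed, and the median was 0.00, or 0.11 without replicate 3 at 10 months.

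Several genes known to respond to estrogen were higher in mural cells. Of 16 genes 14 were tested, and 6 passed as higher and 1 as lower, against 9.69% and 11.2% of all genes, with a median log2 fold change of 0.51. Cyp19a1, which encodes aromatase, the estradiol-forming enzyme, was measured at 341 ± 24.1 against 34.2 ± 5.11 FPKM (SD, n = 2 and 3; 3.28, limma, adjusted p = 0.00182). Greb1, a coactivator induced by estrogen, stood at 295 ± 12.6 against 176 ± 7.46 FPKM (0.74, adjusted p = 0.00876), and was singled out after its value was seen. Ctsd, a lysosomal protease, stood at 213 ± 58.4 against 88.3 ± 9.75 (1.24, adjusted p = 0.00730), and Ccnd2, the cyclin of granulosa proliferation, was the 1 lower gene at 72.3 ± 2.21 against 122 ± 10.9 (-0.74, adjusted p = 0.0156). The call on Ccnd2 was lost after rescaling without short RNA genes and without cumulus replicate 2 at 2 months. Several of these genes, such as Cyp19a1 and Lhcgr (7.07, adjusted p = 0.00659), also respond to gonadotropins. The counts were 4 higher without mural replicate 1 and 1 without replicate 2, with none lower. With age none of the 14 passed (median -0.01, or 0.12 without replicate 3 at 10 months), and Ccnd2 (-0.62, adjusted p = 0.198), Ctsd (0.53, adjusted p = 0.274) and Xbp1, a transcription factor of secretory cells (0.67, adjusted p = 0.307), had the smallest p-values.

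Enzymes that supply and clear the ligands of these receptors were mostly higher in mural cells. Of 12 genes 11 were tested, and 7 were higher and 1 lower in mural cells, against 9.69% and 11.2% of all genes, with a median log2 fold change of 3.00. Besides Cyp19a1, Hsd3b1, which makes progesterone from pregnenolone, was higher (4.31, limma, adjusted p = 0.00199), as was Cyp17a1, which makes androgens and marks theca cells, at 61.5 and 63.0 FPKM against 1.45, 0.506 and 0.389 (5.20, adjusted p = 0.00720). The gene that was lower is Hsd11b2. With age none passed, and the median was 1.04, or 0.68 without replicate 3 at 10 months. Sult1e1, a gene of this list, was at 0 outside the 10-month group and entered both medians only through that group. The counts were 4 higher and 1 lower without mural replicate 1, and 2 and 0 without replicate 2. Over all genes 2599 passed in mural cells, 1164 without cumulus replicate 2 at 2 months, 800 without mural replicate 1 and 99 without mural replicate 2, so the calls in mural cells depend on having both mural libraries.

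The complexes were set beside cumulus cells at 2 months without a test, since each strain has 1 library, and strain and age, and possibly priming, differ from those of the cumulus donors. No receptor differed by 2-fold in either, on the log2(FPKM + 1) scale, where 12.4% and 3.37% of 12713 genes were at least 2-fold higher and lower in BDF1 and 14.2% and 5.5% in DBA/2. The log2 ratio of Pgrmc1 was -0.62 in BDF1 and -0.43 in DBA/2, and its level was below all cumulus libraries in both. The ratio of Nr3c1 was 0.26 and 0.93, that of Esr1 -0.05 and -0.37, that of Esr2 0.11 and 0.03, and that of Pgrmc2 -0.14 and 0.04. The complexes hold oocyte RNA, so levels in cumulus cells and in oocytes cannot be told apart there.

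Genes whose levels followed each receptor most closely were sought over all 10 libraries by Pearson correlation of log2(FPKM + 1) among 11233 genes, as a description, since libraries of 1 group share cell type and the COC share a low depth. For Pgr the closest were Ereg (0.999), Npy (0.988) and Rsad2 (0.986), all high in the same library, for example Npy at 10.3 FPKM there and 0.665 or less elsewhere. For Pgrmc1 they were Tfeb (0.985), Pkdcc (0.983) and Maged2 (0.977). Tfeb stood at 2.75 and 2.84 FPKM in mural cells, at 0.601 to 1.49 in cumulus cells and at 0 and 0.393 in the COC. For Esr1 they were Msh3 (0.963), Trim24 (0.949) and Fam57a (0.944), and for Esr2 Ednra (0.917), B3gntl1 (0.913) and Pomt1 (0.904). Nr3c1 was followed by Rap1a (0.937), Dync1i1 (0.926) and Avl9 (0.913), and Pgrmc2 by Pygo2 (0.972), Rpia (0.959) and Slc38a5 (0.947).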

How the data were processed

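RNA of 10 libraries was measured by sequencing. The authors deposited 1 table of FPKM, for which TopHat2 (2.1.0), Cufflinks (2.1.0) and build mm9 are named, per the submitters' processing notes. No source used here gives the annotation, strandedness or read depth. Groups follow the labels.

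A repeated header line was dropped. The scale was log2(FPKM + 1), which understates changes of low genes. The 12412 genes whose FPKM averaged 1 or more in the 8 C57BL/6 libraries entered 1 model with a term per group (limma 3.58.1, R 4.3.3, intensity trend), with two-sided p-values and Benjamini-Hochberg adjustment over all genes. The model was tested on simulated data. Ratios of genes were compared by exact permutation. Whole fragments were recovered where a gene's values over libraries were multiples of 1 step, within 0.03 fragments (2754 of 3672 genes with a mean below 1 FPKM), and were used for intervals and floors (3 fragments) only. Those cover counting error alone.

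The members and gene lists were chosen with earlier results of these data known. Named genes are the members, Nr3c2, the 3 genes of each list with the smallest p per comparison and the 3 genes most correlated with each member. Not all of these are reported here. Paqr6, Paqr7, Paqr9, Greb1, Ccnd2, Hsd11b1, Hsd11b2, Fkbp4, Has2, Ptx3, Ereg and other genes given as examples were named after their values were seen. Alternatives changed the pseudocount, filter, scaling, groups fitted, replicate numbers as a term, library weights and the libraries included. Promoter windows were matched by symbol.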

Additional observations from a re-analysis of the deposited data

How the results depend on the processing

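Of the fold changes of tested receptors under the alternatives, 98 of the age values and 91 of the mural values kept direction and side of the threshold. In mural cells 5 values passed only under an alternative and 3 no longer passed. With age, Pgrmc2 turned from -0.06 to 0.03 without replicate 3 at 10 months (-0.12 to 0.03 when 1 library was left out). The number of genes past the threshold with age was 0 in the fit reported, 69 with library weights and 0 to 245 when 1 library was left out. In mural cells it was 2599, against 5425 with library weights and 99 to 3253 when 1 library was left out. Receptors past the threshold in mural cells numbered 2 in the fit reported, 1 with a filter at a mean of 5 FPKM, where Esr1 was not tested, 4 with library weights (adding Nr3c1 and Pgrmc2) and 0 to 3 when 1 library was left out. Receptors called with age numbered 0 in every setting. The age difference in the log2 ratio of Esr2 to Esr1 was 0.07, -0.10 with a pseudocount of 5, and -0.11 to 0.21 when 1 library was left out. With a pseudocount of 0.1, 1 receptor in BDF1 and 2 in DBA/2 COC differed by at least 2-fold. Deviations of same-numbered cumulus libraries at 10 and 2 months correlated at 0.01, 0.12 and 0.15. Whether mural and cumulus libraries at 2 months were paired was not checked, and these values cannot show it. With the replicate block, 0 genes passed with age and 3361 in mural cells (39.0% of them higher), 3 receptors passed in mural cells (Nr3c1 at 0.98, adjusted p = 0.0395), and Paqr8 lost its call. Fragment numbers limit Pgr, Gper1 and all COC values, and 2 mural libraries limit every mural call. The causes of these shifts were not tested.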
